A study of Mus musculus with 12 samples.

Results

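The genes described here code for the transport system of the cilium: the subunits and helpers of the BBSome, the intraflagellar transport (IFT) particles, the kinesin-2 motors and proteins of the ciliary base. They were chosen by name, with no measured value in the rule, as every probe set of the array that the platform annotation gives 1 gene symbol from a list of 39 genes, and the brightest probe set stood for each gene. Of the 39 genes 36 had such a probe set, 60 probe sets in all, among 45101 probe sets and 18194 named genes on the array. *Arl6*, *Rpgrip1l* and *Arl13b* were not analysed here. The 7 BBSome subunits named below are those on the list. *Bbip1*, a further subunit, was measured among other genes of the machinery.

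Expression was measured in whole mouse retina with 12 Affymetrix arrays, 3 for each of 4 groups, to ask how loss of the transcription factor *Otx2* changes the retina at postnatal day (P) 1 and P12. Both genotypes carried the floxed alleles. The control retina was otx2 flox/flox, Crx-Cre- and the *Otx2* CKO retina was otx2 flox/flox, Crx-Cre+, with Cre under the *Crx* promoter. The arrays of whole retina do not tell which cells lost *Otx2*. Some samples have a free-text description with the opposite genotype, whereas their titles, source names and genotype fields go together and were used. How many animals gave the RNA of 1 array is not given in the sources used here, and the p-values measure the spread between these arrays. Signals are given in arbitrary units after quantile normalization of the 12 arrays, and changes are differences of log2(signal + 16). Where 3 signals stand against 3 others at 1 age, the control arrays come first and the *Otx2* CKO arrays follow, each in the order of replicates 1 to 3.

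A photoreceptor outer segment is a modified sensory cilium, and its proteins reach it from the inner segment through a narrow connecting cilium. IFT-B particles, moved by kinesin-2, carry cargo toward the tip, IFT-A particles serve the return path with dynein, the BBSome is a coat-like complex that sorts membrane proteins in and out of the cilium, and the transition zone forms the gate at its base. Defects in these genes cause Bardet-Biedl syndrome, nephronophthisis, Joubert syndrome and related disorders, in many of which the retina degenerates.

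*Otx2* itself had signals of 901, 841 and 639 in the control retina at P1, and 377, 336 and 427 in the *Otx2* CKO retina. At P12 the control arrays read 937, 592 and 588 and the *Otx2* CKO arrays 96.6, 113.6 and 67.5. The groups did not overlap at either age. The log2 change was -2.72 (SE 0.233) at P12, with an adjusted p of 5.8e-06 in limma, and -1.02 (SE 0.234) at P1, where the adjusted p was 0.217 (0.0286 with a replicate block within age). The files do not tell whether these probes fall within the sequence that Cre removes. Among 7 rod and cone genes the summed signal was 16200.6 to 18040.7 in the P12 control arrays and 487.4 to 1051.2 in the P12 *Otx2* CKO arrays. For 4 bipolar cell genes it was 974.1 to 1427.8 against 158.6 to 275.0, with *Trpm1* below a mean of 50 in every group. For 4 microglia genes it was 439.7 to 684.8 against 1186.1 to 1805.2. As deposited, P12 *Otx2* CKO replicate 1 was brighter than its replicates, with a trimmed mean signal of 172 beside 108.4 and 110 and a median of 56 beside 25.4 and 32.4. In RNA of a whole retina, fewer cells of a type and less RNA in each cell cannot be told apart.

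At P12 13 ciliary transport genes were lower in the *Otx2* CKO retina and none was higher, of 32 that reached a mean signal of 50 in either group. Across all probe sets tested 8.45% were lower and 7.91% were higher. All 7 BBSome subunits on the list fell, by 1.03 to 2.40 on the log2 scale. The subunit gene *Bbip1*, outside the list, was not lower (559, 269 and 768 in the control against 769, 455 and 1006). By contrast 1 of the 12 IFT-B genes on the list fell, and the others ranged from -0.41 to 0.21. Of IFT-B genes outside the list, *Ift22*, *Ttc30a1* and *Ttc30b* had control means 1.68-fold, 1.89-fold and 1.52-fold the *Otx2* CKO means. These folds are not limma calls. The arrays of *Ttc30b* were apart (137.2, 137.6 and 139 against 97.1, 86.6 and 88.6), and those of *Ift22* and *Ttc30a1* overlapped. *Hspb11* was at 0.97-fold, and *Ttc26* (1.96-fold) and *Ttc30a2* (1.09-fold) stayed below 50. The transition zone gave 2 lower genes of 6, IFT-A 1 of 2, the kinesin-2 motors 1 of 3 and the chaperonin-like Bardet-Biedl genes 1 of 2. The median change of the 32 was -0.39 beside 0.07 for all probe sets tested. Of these 32 genes 16 had all 3 *Otx2* CKO arrays below all 3 control arrays, beside 12.6% of all probe sets tested. The limit of 50 favours a difference in a gene that passes it in 1 group only, which was so for 6 of the 13 (*Bbs2*, *Bbs7*, *Bbs9*, *Bbs12*, *Ift80* and *Nphp4*). With no limit on the signal, 10 of all 36 measured members fell and none rose, beside 1431 lower and 1101 higher of 45037 probe sets. On the signals as deposited 9 of 34 fell and none rose, while 75.7% of all called probe sets were higher, in place of 48.4%.

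**Figure D1:**
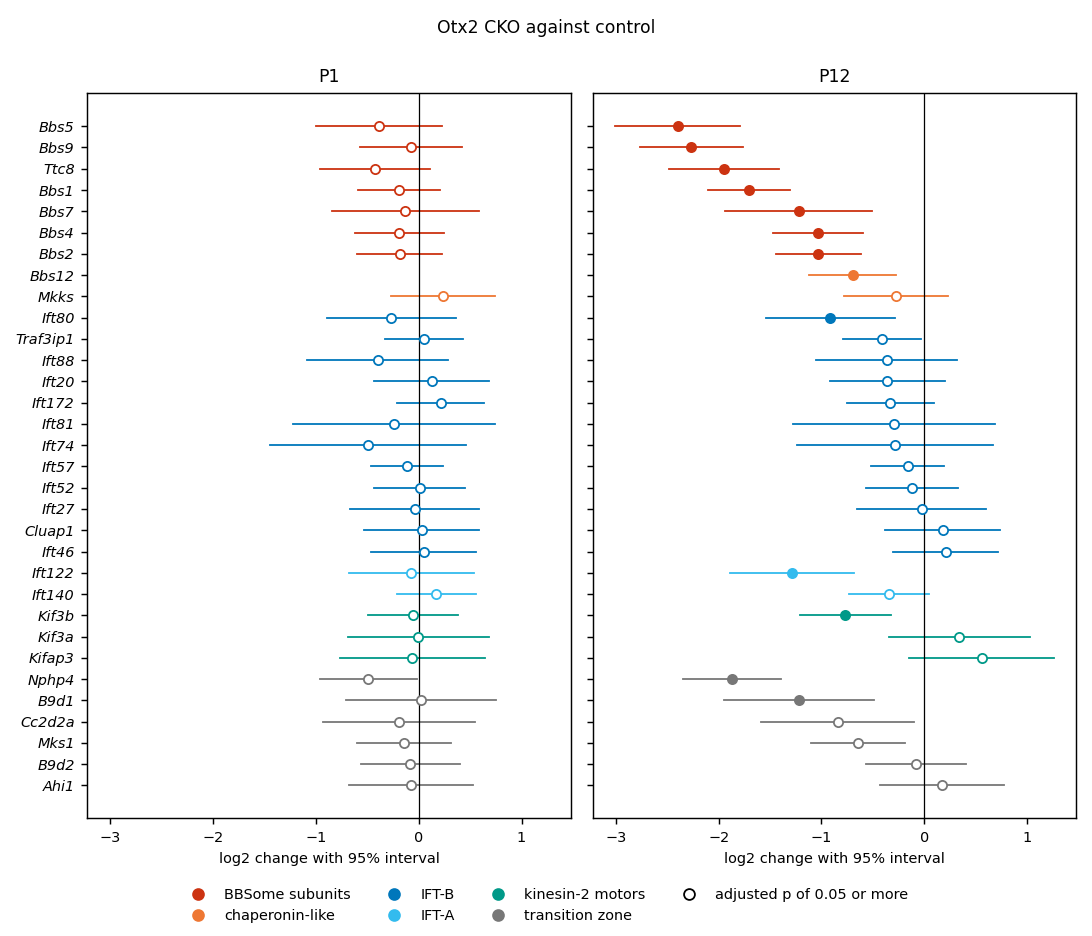
Log2 change of each ciliary transport gene in the Otx2 CKO retina against the control retina at P1 (left) and P12 (right), with 95% intervals from limma, 3 arrays in each group. Filled points passed the adjusted p of 0.05; at P12 the 7 BBSome subunits lie between -2.40 and -1.03, the IFT-B genes other than Ift80 lie between -0.41 and 0.21, and no point is filled at P1.

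*Bbs5*, which codes for a BBSome subunit that binds phosphoinositides, showed the largest change among the members. The P12 control arrays read 519, 258 and 432 for it and the P12 *Otx2* CKO arrays 65.4, 65.8 and 50.8, a 6.64-fold difference of the means. The control arrays spread widely, but the lowest was far above every *Otx2* CKO array, and limma gave a log2 change of -2.40 (SE 0.28, adjusted p = 7.88e-05). *Bbs9*, whose product is a core scaffold subunit of the complex, read 213, 238 and 266 against 27.6, 49.0 and 36.1 in the CKO. The means differed 6.36-fold with no overlap (log2 change -2.27, SE 0.23, adjusted p = 2.47e-05). *Ttc8*, also called *Bbs8*, codes for a subunit built of tetratricopeptide repeats. It had 712, 429 and 726 in the control, far above the 134.7, 126.4 and 179.6 of the *Otx2* CKO arrays (log2 change -1.95, SE 0.247, adjusted p = 0.000154).

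*Bbs1*, among the genes most often mutated in Bardet-Biedl syndrome and coding for a subunit that contacts cargo and the small GTPase that recruits the complex, was tight among replicates. The control arrays read 328, 378 and 334 and the *Otx2* CKO arrays 79.7, 118.5 and 89.3, a 3.61-fold difference (log2 change -1.71, SE 0.184, adjusted p = 4.08e-05). *Bbs2* had 113, 140.1 and 100.4 against 47.6, 60.0 and 41.0, and its change was -1.03 (SE 0.192, adjusted p = 0.00266). *Bbs2* and *Bbs7* code for paired propeller subunits of the complex. *Bbs4* had 222, 263 and 294 against 105.2, 126.9 and 122.8, with a change of -1.03 (SE 0.201, adjusted p = 0.00363). It is a tetratricopeptide subunit, and all 3 of its probe sets that were tested fell, by 1.03, 1.07 and 0.87. *Bbs7* was the most variable subunit, with 237, 74.2 and 129.9 in the control against 64.0, 39.1 and 43.2. Its groups were apart by a small margin, and its change of -1.22 (SE 0.328, adjusted p = 0.0231) lost the call when P12 control replicate 1 or 3, or P12 *Otx2* CKO replicate 2 or 3, was left out, with an adjusted p of up to 0.0774. The call was also lost as deposited (adjusted p = 0.133), with trimmed mean scaling, with spike scaling and with the P12 arrays fitted alone. *Bbs4* lost its call with median scaling (adjusted p = 0.0508).

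The calls of *Bbs1*, *Bbs2*, *Bbs5*, *Bbs9* and *Ttc8*, and that of *Nphp4* below, held with each of the 12 arrays left out in turn and under every alternative setting in which they were tested. The count of 13 depended more on the arrays: without P12 control replicate 3 it was 8, and without P12 *Otx2* CKO replicate 1 it was 10. The count was 7 with each array scaled to its median, and also 7 when the P12 arrays were fitted alone.

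**Figure D2:**
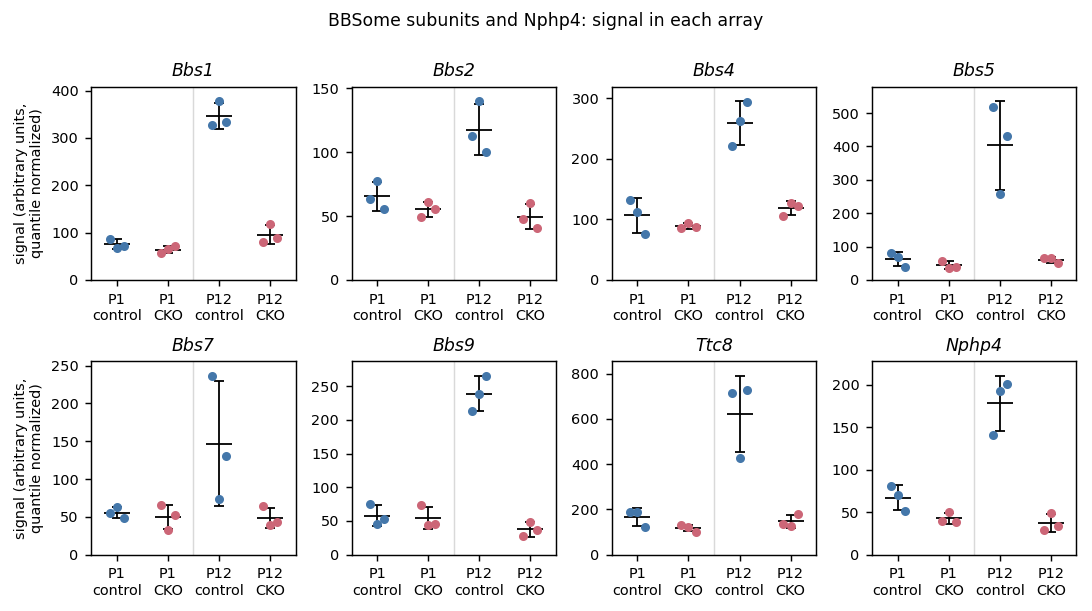
Quantile-normalized signal (arbitrary units, linear axes starting at 0) of the 7 BBSome subunits and Nphp4 in each of the 12 arrays; points are arrays, and bars give the mean and SD of 3 arrays. In each panel the P12 control arrays lie above the P12 Otx2 CKO arrays, by the smallest margin for Bbs7.

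*Nphp4*, which codes for a transition zone protein mutated in nephronophthisis, had a change within the range of the BBSome subunits. It had 141, 193 and 201 in P12 control retina against 29.1, 49.1 and 33.6 in P12 *Otx2* CKO retina (4.78-fold, log2 change -1.87, SE 0.218, adjusted p = 7.65e-05). *B9d1*, a component of the Meckel syndrome module of the transition zone, read 104.1, 215 and 135.7 against 36.7, 77.3 and 51.7. The groups did not overlap, and the change was -1.22 (SE 0.335, adjusted p = 0.0259). Leaving out P12 control replicate 2 or 3, or P12 *Otx2* CKO replicate 1 or 3, ended that call, with an adjusted p of up to 0.0866, as did median scaling (adjusted p = 0.0963) and fitting the P12 arrays alone. *Cc2d2a* (313, 108.4 and 222 against 153, 79.7 and 88.2) and *Mks1* (70.8, 102.9 and 109.9 against 50.4, 63.5 and 48.7) missed the threshold, with changes of -0.84 and -0.64 and adjusted p of 0.121 and 0.058. With a replicate block within age, which compares arrays of the same number, they passed it (adjusted p = 0.00304 and 0.0103), as did 2775 lower and 3634 higher of 16995 probe sets. *B9d2*, from the same module as *B9d1*, changed by -0.08 with a 95% interval of -0.57 to 0.40. *Ahi1*, the Joubert syndrome gene for jouberin, had 481, 237 and 382 in the control and 514, 312 and 400.2 in the *Otx2* CKO. The groups overlapped, each *Otx2* CKO array was above the control array of its number, and the interval of the change was -0.43 to 0.78.

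Of the IFT-B genes, *Ift80* was the member called lower, with 130.1, 47.1 and 117.2 in the P12 control against 48.6, 29.4 and 46.3. These arrays overlapped, the adjusted p of 0.0486 was at the threshold for a change of -0.92 (SE 0.289), the gene's other tested probe set did not pass (-0.72, adjusted p = 0.136), and 11 of the 12 analyses that left out an array lost the call, with an adjusted p of up to 0.165, as did 8 alternative settings, with up to 0.28. *Ift88*, whose mutation in mice disturbs outer segment assembly, read 116.9, 56.4 and 44.5 against 72.3, 40.7 and 38.7. Its change of -0.36 had an interval of -1.05 to 0.32, which includes both no change and the sizes seen for *Bbs2* and *Bbs4*. *Ift57* was much tighter, at 115.4, 116.2 and 150.8 against 113, 109.4 and 111.9. All 3 *Otx2* CKO arrays were just below the control arrays, and the change of -0.16 had an interval of -0.52 to 0.19. *Ift46* (203, 365 and 315 against 259, 419 and 342) and *Cluap1* (47.5, 102.7 and 117.1 against 82.6, 112.2 and 99.3) had changes above 0, of 0.21 and 0.18. Neither passed the threshold, with adjusted p of 0.619 and 0.708. *Ift172*, *Ift52*, *Ift20*, *Ift27* and *Traf3ip1* had changes of -0.33, -0.12, -0.36, -0.03 and -0.41 and were not called. Of these genes *Traf3ip1* had its groups apart, with 59.2, 81.8 and 73.2 against 49.8, 55.3 and 43.8 (adjusted p = 0.142 in limma). *Ift74* and *Ift81*, whose products bind tubulin together, had the widest intervals of the class, -1.24 to 0.67 and -1.27 to 0.69. In *Ift81* the replicate 1 array was the highest and the replicate 2 array the lowest in both genotypes (299, 64.2 and 137.2 for the control, against 204, 67.6 and 98.6).

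The median log2 signal of the 7 BBSome subunits was 7.98, 8.10 and 8.27 in the P12 control arrays and 6.35, 6.35 and 6.06 in the P12 *Otx2* CKO arrays. For the 12 IFT-B genes it was 7.05, 6.89 and 6.98 against 6.52, 6.65 and 6.55. Both sets of arrays were apart, the BBSome by the wider gap. The difference between the classes was not tested.

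Of the IFT-A genes, *Ift122* had 206, 390.4 and 299 in the P12 control against 68.0, 153.8 and 121.3, which did not overlap. The change was -1.29 (SE 0.279, adjusted p = 0.00708), and another probe set of the gene gave -1.13 (adjusted p = 0.00415). The call of *Ift122* was lost with median scaling (adjusted p = 0.0756) and with the P12 arrays fitted alone (0.0739). *Ift140* changed by -0.35 (SE 0.179, adjusted p = 0.228), with the lowest control and highest *Otx2* CKO array both at 165.2. Among the motor genes, *Kif3b*, which codes for a motor subunit of heterotrimeric kinesin-2, had 165, 127.4 and 185 against 91.5, 69.1 and 100.2. It fell by 0.77 on the log2 scale (SE 0.202, adjusted p = 0.0211), and its other 3 probe sets gave -0.57, -0.60 and -1.02, of which -0.60 was not called (adjusted p = 0.104). Without P12 control replicate 3 or P12 *Otx2* CKO replicate 2 the call of *Kif3b* was lost, with an adjusted p of up to 0.0829, as it was under 5 alternative settings with a test, with an adjusted p of up to 0.26 on the signals as deposited. *Kif3a*, its partner motor subunit, had a change of 0.34 (adjusted p = 0.537) and 3 further probe sets at 0.56, 0.23 and 0.31. None of these probe sets was called, so a rise of *Kif3a* was not shown. The accessory subunit gene *Kifap3* read 580, 288 and 540 in the control against 966, 513 and 606. Each *Otx2* CKO array was above the control array of its number, and the change of 0.56 was called only with a replicate block (adjusted p = 0.287 without, 0.0168 with the block within age).

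**Figure D3:**
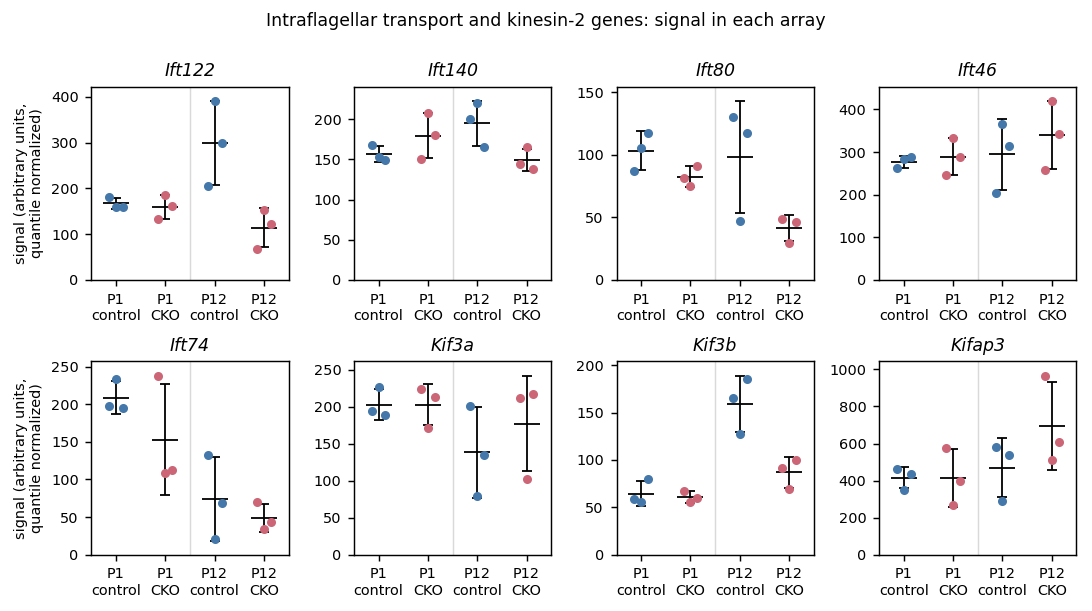
Quantile-normalized signal (arbitrary units, linear axes starting at 0) of 8 IFT and kinesin-2 genes in each of the 12 arrays; points are arrays, and bars give the mean and SD of 3 arrays. Ift122 and Kif3b separate the P12 groups, Ift80 overlaps, and Ift46, Kif3a and Kifap3 have higher means in the P12 Otx2 CKO retina.

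The chaperonin-like proteins help to assemble the BBSome. *Bbs12* had 53.3, 53.8 and 65.9 in the P12 control against 34.0, 34.6 and 20.7, near the limit of 50, and fell by 0.70 on the log2 scale (SE 0.193, adjusted p = 0.0268). That call was lost without replicate 3 of either P12 group, with an adjusted p of up to 0.12, and under 4 alternative settings with a test, with up to 0.219 on the signals as deposited. *Mkks* (*Bbs6*) changed by -0.28 (adjusted p = 0.488). *Bbs10*, *Kif17*, *Tmem67* and *Ofd1* stayed below the mean signal of 50 in both P12 groups and were not tested.

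Promoter sequences are shown for the BBSome genes that held a motif of ciliary gene promoters, and for *Ift57*, which held the same motifs and was not called. RFX factors, which drive many ciliary genes, bind the X-box, here searched as the half-site GTTGCC and as paired half-sites, GTNNCC followed after 0 to 3 bases by GGNAAC, while the OTX and CRX homeodomain proteins favour TAATCC. The motifs were searched on both strands of RefSeq promoters of build GRCm38.p6, from 250 bases before to 50 after the transcript start, and a half-site match can lie inside a paired match. Promoters were found for 32 of the 36 genes. GTTGCC was present in 16 of them (50%), beside 14.1% of 27025 genes, and the paired half-sites in 7 (21.9%), beside 2.68%. TAATCC was present in 1, *Bbs1* (3.12%, beside 8.14% of genes). Of the 7 BBSome genes 3 held GTTGCC and 3 the paired half-sites, and of 10 IFT-B genes 5 and 1. Capitals mark the matches, and sequences run 5′ to 3′ on the strand of the gene. The windows are chr19:4906578-4906877 (minus strand) for *Bbs1*, chr9:59353459-59353758 (minus) for *Bbs4*, chr2:69646921-69647220 (plus) for *Bbs5*, chr3:36613340-36613639 (minus) for *Bbs7* and chr16:49699044-49699343 (plus) for *Ift57*.
Bbs1: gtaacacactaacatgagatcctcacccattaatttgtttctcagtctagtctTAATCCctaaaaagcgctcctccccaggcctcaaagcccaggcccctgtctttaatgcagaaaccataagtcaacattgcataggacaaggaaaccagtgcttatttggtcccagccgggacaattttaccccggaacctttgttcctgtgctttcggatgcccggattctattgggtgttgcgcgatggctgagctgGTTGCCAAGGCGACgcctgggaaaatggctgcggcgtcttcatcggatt
Bbs4: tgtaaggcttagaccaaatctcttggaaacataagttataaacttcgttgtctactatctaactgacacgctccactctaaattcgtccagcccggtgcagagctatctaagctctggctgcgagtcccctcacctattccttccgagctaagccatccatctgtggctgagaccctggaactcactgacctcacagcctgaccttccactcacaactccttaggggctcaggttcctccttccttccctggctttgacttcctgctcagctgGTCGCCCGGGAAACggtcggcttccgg
Bbs5: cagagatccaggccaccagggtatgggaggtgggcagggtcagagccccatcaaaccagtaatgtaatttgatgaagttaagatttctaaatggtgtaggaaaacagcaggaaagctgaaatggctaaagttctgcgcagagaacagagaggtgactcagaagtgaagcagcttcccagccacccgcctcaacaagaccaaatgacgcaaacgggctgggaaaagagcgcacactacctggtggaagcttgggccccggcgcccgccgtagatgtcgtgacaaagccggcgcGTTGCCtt
Bbs7: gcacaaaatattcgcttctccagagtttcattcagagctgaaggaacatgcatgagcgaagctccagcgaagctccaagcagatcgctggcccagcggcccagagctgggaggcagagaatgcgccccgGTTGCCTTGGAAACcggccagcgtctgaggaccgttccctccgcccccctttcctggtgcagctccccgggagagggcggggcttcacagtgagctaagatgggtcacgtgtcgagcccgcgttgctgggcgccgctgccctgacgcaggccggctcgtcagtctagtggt
Ift57: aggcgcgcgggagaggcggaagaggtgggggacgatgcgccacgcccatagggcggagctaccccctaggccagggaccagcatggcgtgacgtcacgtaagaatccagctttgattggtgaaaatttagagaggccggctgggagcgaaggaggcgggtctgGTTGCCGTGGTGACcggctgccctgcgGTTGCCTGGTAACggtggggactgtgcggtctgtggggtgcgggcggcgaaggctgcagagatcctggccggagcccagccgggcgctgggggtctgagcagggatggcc
In *Bbs1* the paired half-sites began at position 2 after the start and TAATCC at -197, and in *Bbs4* and *Bbs7* the paired half-sites began at 24 and -121. The promoter windows of *Bbs2*, *Bbs9* and *Ttc8*, whose signals fell with these genes, held none of the 3 motifs. A match is a stretch of letters and not a measured binding site.

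At P1 no member passed the threshold in either direction among 31 tested, beside 0.208% of all probe sets lower and 0% higher. At an unadjusted p of 0.05 limma gave 1 lower member, *Nphp4*, and 0 higher, beside 1.33% and 1.24% of all probe sets. *Nphp4* had 80.5, 70.3 and 50.9 in the control against 39.6, 50.7 and 38.1, a change of -0.49 (SE 0.217, adjusted p of 1 in limma). Its groups were just apart, as were those of *Ift57*, beside 3.88% of all probe sets with every *Otx2* CKO array the lower. The 7 BBSome subunits had changes from -0.42 (*Ttc8*) to -0.08 (*Bbs9*), and the IFT-B genes from -0.49 (*Ift74*) to 0.21 (*Ift172*). The 95% intervals at P1 reached down to -0.96 for *Ttc8*, -0.85 for *Bbs7*, -0.59 for *Bbs1* and -0.57 for *Bbs9*. The summed signal of the 7 rod and cone genes was already lower at P1, with 792.3 to 1397.4 in the control, and 75.2 to 146.5 in the CKO arrays. Of these 7 genes 4 reached the signal limit at P1, and 3 were called lower (*Sag*, *Opn1sw* and *Gnat2*). *Pde6h* had its arrays apart but was not called (adjusted p = 0.213 in limma). *Gnat1*, *Pde6b* and *Arr3* stayed below the limit in both P1 groups and were not tested.

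The effect of the genotype at P12 less that at P1 was tested as an interaction term in limma. It passed for 5 members of 32, all with the lower value at P12, beside 3.11% of all probe sets lower and 1.26% higher. The differences were -2.19 (SE 0.325, adjusted p = 0.00171) for *Bbs9*, -2.01 (SE 0.396, adjusted p = 0.0113) for *Bbs5*, -1.52 (SE 0.349, adjusted p = 0.0275) for *Ttc8*, -1.52 (SE 0.262, adjusted p = 0.00489) for *Bbs1* and -1.38 (SE 0.307, adjusted p = 0.023) for *Nphp4*. That of *Bbs1* was lost on the signals as deposited (adjusted p = 0.0608) and with median scaling (0.121), and that of *Ttc8* under the same settings. Those of *Ttc8* and *Nphp4* were each lost in 7 of the 12 analyses without an array, at an adjusted p of up to 0.0842 and 0.078. That of *Nphp4* was also lost with median scaling and with no signal filter, at an adjusted p of up to 0.166. The number of members fell to 3 without P1 control replicate 3, P1 *Otx2* CKO replicate 2 or 3, P12 control replicate 3 or P12 *Otx2* CKO replicate 1. On the signals as deposited 3 passed, and 63.2% of all called probe sets had the higher value at P12, in place of 28.9%. With a replicate block within age, *Ift122*, *B9d1*, *Bbs2*, *Bbs4*, *Bbs7* and *Kif3b* also passed, making 11. That setting called 1554 lower and 1839 higher of all 18643 probe sets, in place of 579 and 235. Without a block, another probe set of *Bbs4* passed (-0.93, adjusted p = 0.043), where the one used gave -0.84 (adjusted p = 0.144).

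Between P1 and P12 the control retina gained signal for all 7 BBSome subunits on the list. The mean of *Bbip1*, outside the list, did not rise (0.87-fold). In total 13 members rose and 1 fell, of 32 tested, beside 19.5% of all probe sets higher and 19.6% lower. This comparison shares the P12 control arrays with the one between genotypes, so its values do not stand apart from those above. *Bbs5* rose from 82.0, 68.2 and 40.0 at P1 to 519, 258 and 432, a 6.35-fold gain (log2 change 2.38, SE 0.28, adjusted p = 3.41e-05). *Bbs1* rose from 86.8, 67.5 and 72.8 to 328, 378 and 334 (log2 change 1.99, SE 0.184, adjusted p = 4.89e-06). *Bbs9* and *Ttc8* rose by 1.80 and 1.79, and *Bbs4*, *Bbs7* and *Bbs2* by 1.19, 1.07 and 0.71. All P12 control arrays were above all P1 control arrays in each of these 7 subunits, which was so for 24.8% of all probe sets tested. Of the motor genes *Kif3b* rose by 1.12, from 58.3, 55.4 and 79.8 to 165, 127.4 and 185. The transition zone genes *Cc2d2a*, *Nphp4* and *Ahi1* rose by 1.23, 1.22 and 0.76. *Mkks* and *Ift20* rose by 0.65 and 0.70, close to the threshold (adjusted p = 0.0425 and 0.0479). The call of *Mkks* was lost in 9, and those of *Ift20* and *Ahi1* in 7 each, of the 12 analyses without an array. By their brightest probe sets *Ift74* was the member that fell, from 198, 234 and 195 at P1 to 132.4, 20.4 and 68.8 (log2 change -1.54, SE 0.437, adjusted p = 0.0144; 0.0515 without P1 control replicate 2). Another probe set of *Kif3a* fell by 1.28 (adjusted p = 0.00102), where the one used gave -0.58 (adjusted p = 0.166), and another of *Ift122* gave 0.87 (adjusted p = 0.00874), where the one used gave 0.74 (adjusted p = 0.0529). The higher count was 7 without P1 control replicate 3 (*Bbs1*, *Bbs4*, *Bbs5*, *Bbs9*, *Ttc8*, *Kif3b* and *Nphp4*).

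In the *Otx2* CKO retina none of the 7 listed BBSome subunits passed the threshold between P1 and P12, and their changes ran from -0.39 (*Bbs9*) to 0.47 (*Bbs1*). For 2 of the 7 all P12 arrays were above all P1 arrays. *Bbs1* had 56.3, 64.4 and 71.8 at P1 and 79.7, 118.5 and 89.3 at P12 (adjusted p = 0.0777 in limma). *Bbs4* had 85.9, 94.9 and 88.0 at P1 and 105.2, 126.9 and 122.8 at P12 (log2 change 0.34, adjusted p = 0.232). The arrays of the other subunits overlapped. *Bbs5* read 57.7, 36.5 and 37.5 at P1 and 65.4, 65.8 and 50.8 at P12 (log2 change 0.37, 95% interval -0.24 to 0.98), and *Ttc8* 130.5, 122.6 and 102.1 at P1 and 134.7, 126.4 and 179.6 at P12 (0.27, interval -0.27 to 0.81). Among the 30 members tested 1 rose and 2 fell, beside 14.3% of all probe sets higher and 13.3% lower. *Ahi1* rose by 1.02 (SE 0.277, adjusted p = 0.0167), from 243, 138.6 and 203 to 514, 312 and 400.2, and its arrays did not overlap. That call was lost without P1 *Otx2* CKO replicate 2 (adjusted p = 0.075) or P12 *Otx2* CKO replicate 1. *Ift74* (-1.34, adjusted p = 0.0387) and *Ift52* (-0.61, adjusted p = 0.0445) fell, and each call was lost in 9 of the 12 analyses without an array. *Ift52* had 153, 125.5 and 162 at P1 and 74.2, 104.3 and 94.99 at P12, with the arrays of the ages apart. The scale between ages rests on the normalization. On the signals as deposited, whose arrays share no common level, the median of all probe sets rose by 1.45 (control) and 1.85 (*Otx2* CKO), and 98.2% and 99.4% of called probe sets were higher at P12 in place of 49.9% and 51.8%. The members' medians were then 1.79 and 1.81, and *Ift74* and *Ift52* in the *Otx2* CKO retina turned to 0.60 and 1.43.

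**Figure D4:**
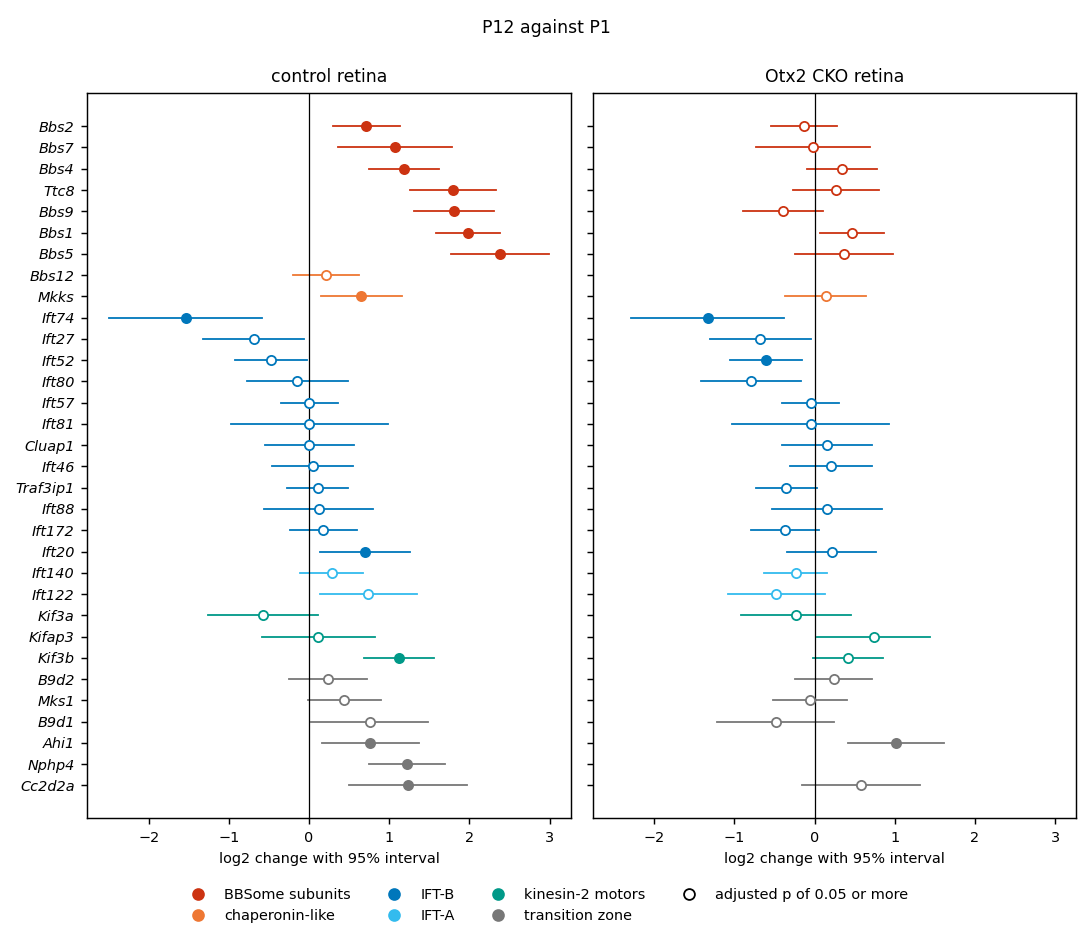
Log2 change from P1 to P12 of each ciliary transport gene in the control retina (left) and the Otx2 CKO retina (right), with 95% intervals from limma on quantile-normalized signals, 3 arrays in each group. Filled points passed the adjusted p of 0.05; all 7 BBSome subunits are filled in the control retina, from 0.71 to 2.38, and none is filled in the Otx2 CKO retina.

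A further 40 genes of the same machinery were listed, of which 38 had a probe set. At P12 8 of 31 tested were lower in the *Otx2* CKO retina and 1 was higher, with a median of -0.61. Across all probe sets tested 8.45% were lower and 7.91% higher, with a median of 0.07. *Tmem237*, a transition zone membrane protein gene, had 574, 467 and 585 in the control against 141.9, 143.1 and 127.3 (log2 change -1.86, SE 0.169, adjusted p = 9.48e-06). *Tctn2*, coding for a tectonic of the same gate, fell by 1.56 (adjusted p = 0.000265), *Ift43* of the IFT-A particle by 1.19 (adjusted p = 0.00177) and *Wdr60* of the dynein-2 motor by 1.12 (adjusted p = 0.00504). None of the P12 arrays of these 4 genes overlapped between genotypes. The call of *Wdr60* was lost as deposited (adjusted p = 0.0924) and with the P12 arrays fitted alone, and that of *Ift43* with median scaling (adjusted p = 0.0618). *Tulp3*, whose product links IFT-A to membrane cargo, was the gene that rose (98.8, 196 and 116.6 against 204, 314 and 266; log2 change 0.89, adjusted p = 0.0207), and it is named here after its values were seen. At P1 none of 28 passed, beside 0.208% of all probe sets lower and 0% higher. From P1 to P12 in the control retina 8 of 31 rose and 1 fell, beside the 19.5% and 19.6% of all probe sets given above.

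Of 5 markers of motile ciliated cells, *Foxj1*, *Dnah5*, *Dnaic1* and *Tekt1* stayed below a mean signal of 50 in every group, and the summed signal of the 5 was 75.0 to 150.7 in the P12 control and 69.1 to 90.2 in the P12 *Otx2* CKO arrays. The summed signal of 5 pigment epithelium genes was 435.5 to 1337.7 and 688.9 to 1853.9, overlapping between genotypes at P12. At P12 the arrays of the genotypes were also apart for 3 horizontal cell genes (283.0 to 388.6 against 73.7 to 123.8, with *Lhx1* and *Onecut1* below 50 in every group), 6 amacrine genes (2637.7 to 2839.5 against 3587.0 to 4004.7), 4 Muller glia genes (4031.0 to 4891.0 against 4982.0 to 5939.8) and 3 ganglion cell genes (1849.5 to 2071.0 against 2172.0 to 2999.6). Of the amacrine genes 2 were called higher, of the Muller glia genes 1 and of the ganglion cell genes 0, and the horizontal cell gene *Calb1* was called lower. The rod and cone, bipolar and horizontal sums thus moved the same way as the listed BBSome genes, and the amacrine, Muller glia, ganglion cell and microglia sums the opposite way. The part of these cell types in the result was not tested.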

How the data were processed

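The 12 arrays hold total RNA of whole retina, 3 for each genotype at each age, grouped by title. The deposited values are linear signal intensity values that the authors determined with the Affymetrix software. The sources used here give neither a normalization between arrays nor a test. The 2% trimmed mean of the deposited signals was 29.34 and 25.11 in the P1 groups and 101.9 and 130.1 in the P12 groups, so the arrays were brought to 1 scale here by quantile normalization. Between ages that step sets the scale of every change, and it assumes that the spread of all signals is alike. For arrays the number of arrays limits the precision.

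Gene symbols came from the platform annotation: 34958 of 45101 probe sets had 1 symbol, 932 several and 9211 none. The 64 control probe sets were left out. No pair of arrays was identical, and arrays of a group correlated at 0.89 to 0.981. Tests were run on probe sets with a mean of 50 or more in either group compared. log2(signal + 16) was fitted with limma 3.58.1 in R 4.3.3 (4 group means, lmFit and eBayes with trend), and p-values were adjusted by the Benjamini-Hochberg method over all probe sets tested, with a threshold of 0.05 and 95% intervals. The brightest probe set by the mean over the 12 arrays stood for a gene. Folds are ratios of mean normalized signals. The fit was tested on simulated data with independent noise in each array. The links between arrays of the same number, given below, were not simulated.

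The members, gene lists and tests were chosen with earlier results of these data known. All members could be named, those called between genotypes were given by array, and of the other pathway genes the 4 called at P12 with the largest change were named. *Tulp3*, *Bbip1* and the IFT-B genes outside the list were named after their values were seen. Other scalings, offsets of 1 and 50, other signal limits, each age alone, a replicate block and leaving out each array were tried. The replicate number came from the titles. Within an age, arrays of the same number deviated together from their group means (r 0.146 to 0.262 at P1 and 0.584 to 0.894 at P12, 3 pairs each). Arrays of different numbers gave -0.211 to -0.049 and -0.797 to -0.019, in part because deviations within a group cancel out. A block within age was added after seeing the data. Across ages, P1 *Otx2* CKO replicates 1 and 2 also deviated with the P12 arrays of their number (r 0.651 to 0.696). P1 *Otx2* CKO replicate 3 (-0.099 and -0.013) and the P1 control arrays (-0.067 to -0.015) did not. The source of these links was not tested.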

Additional observations from a re-analysis of the deposited data

Results flagged for a closer look

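The effect of the genotype differed between the ages for *Otx2* and 5 ciliary transport genes, by the interaction term in limma on log2 signals of 3 arrays in each group. The change at P12 less that at P1 was -1.70 for *Otx2* (adjusted p = 0.0105), -2.19 for *Bbs9*, -2.01 for *Bbs5*, -1.52 for *Ttc8*, -1.52 for *Bbs1* and -1.38 for *Nphp4*. The difference of *Otx2* lost its call on the signals as deposited (adjusted p = 0.0916) and with median scaling (0.0713), and that of *Bbs1* under the same settings (0.0608 and 0.121). Median scaling also ended the calls of *Ttc8* and *Nphp4*. At P1 these 5 genes had changes of -0.08, -0.39, -0.42, -0.19 and -0.49, none of which was called. Groups of 3 arrays were too small for a test of single arrays that stand apart. By level, the trimmed mean of the deposited signals was 172 in P12 *Otx2* CKO replicate 1 and 108.4 and 110 in its replicates.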

How the results depend on the processing

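At P12 the count of lower members (13) was 7 with median scaling and 7 with each age fitted alone. Without 1 array it ranged from 8 to 13, with the lowest count without P12 control replicate 3. The higher count (0) was 1 with the replicate block and 1 with the replicate block within age. The members' median (-0.39) was -0.043 on the signals as deposited, -0.48 and -0.29 with offsets of 1 and 50, -0.56 with a signal limit of 100, -0.56 under the study's limits alone, and -0.64 to -0.33 without 1 array. At P1 the median (-0.08) was -0.24 as deposited, 0.019 with spike scaling and -0.16 to -0.053 without 1 array, and no member was called under any setting.

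For the difference between ages the lower count (5) was 3 as deposited, 2 with median scaling, 8 with the replicate block, 11 with the block within age and 3 to 6 without 1 array. Its median (-0.51) was -0.016 as deposited, -0.43 with median scaling, -0.60 and -0.38 with offsets of 1 and 50, -0.58 with a signal limit of 100 and -0.54 to -0.44 without 1 array.

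In the control retina from P1 to P12 the higher count (13) was 32 as deposited, 25 with spike scaling and 7 to 14 without 1 array. The lower count (1) was 0 as deposited and with spike scaling, 3 with median scaling, 2 with no signal filter, 2 with the replicate block and 0 to 3 without 1 array. The median (0.36) was 1.79 as deposited, 0.15 with median scaling, 0.98 with spike scaling, 0.28 with an offset of 50, 0.71 with a signal limit of 100, 0.28 over all probe sets of a gene and 0.28 to 0.45 without 1 array. Of all called probe sets 88.4% were higher with spike scaling and 36.8% with median scaling.

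In the *Otx2* CKO retina the higher count (1) was 33 as deposited, 14 with spike scaling, 2 with the replicate block and 0 to 1 without 1 array. The lower count (2) was 0 as deposited, with spike scaling and with no signal filter, 1 with trimmed mean scaling, 1 with an offset of 1, 4 with the replicate block and 0 to 3 without 1 array. The median (-0.03) was 1.81 as deposited, 0.54 with spike scaling, 0.15 over all probe sets of a gene and -0.050 to 0.066 without 1 array. As deposited, *Ift52* (1.43), *Ift74* (0.60), *Otx2* (0.27), *Ift43* (1.49) and *Tctn2* (1.05) changed sign there. The cause of these changes was not tested. The replicate block, which pairs arrays of the same number, lost no member called lower at P12. Signals near the limit of 50, as of *Bbs12*, leave little room to measure a decrease.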
